A study of Mus musculus with 12 samples.

Results

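The insulin-like growth factor (IGF) binding proteins were followed in the livers of adult mice whose mothers had lacked vitamin D. The 8 genes were Igfbp1 to Igfbp7 and Igfals, chosen by name from the 52636 genes counted in every library, and all 8 passed the filter on low counts. RNA-seq libraries came from the left lateral lobe of the liver of 12 male C57Bl/6J mice at 16 weeks of age, with 1 library per mouse. The 6 VDD-F1 mice were born to dams that ate a diet with no vitamin D before mating and through pregnancy and that received calcium gluconate. The 6 VDS-F1 mice were born to dams on the nutrient-matched diet that contained vitamin D. Sires ate the control diet, and from delivery on all dams, and from weaning on all offspring, ate the vitamin D sufficient diet, so the groups differed in the diet of the dam and in her calcium supplement. The litter of each mouse and the feeding state at dissection are not given in the sources used here, so p-values measure the spread between these mice, of which some may be littermates.

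IGF1 in the circulation comes largely from hepatocytes, which make it in response to growth hormone through the receptor Ghr and the transcription factor Stat5b. Almost all of it travels bound to a binding protein, and most of it in a ternary complex with IGFBP3 or IGFBP5 and the acid-labile subunit, the product of Igfals. The binding proteins hold IGFs away from their receptor and lengthen their life in blood, and proteases that cut them set the IGFs free. IGFBP1 is the acute member of the family in liver: insulin represses its gene and fasting induces it. IGFBP7 binds IGFs only weakly and is made by stromal and endothelial cells.

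All 8 are protein-coding genes with positions on GRCm38. Igfbp1 (ENSMUSG00000020429.7, chr11:7197782-7202546, plus strand) and Igfbp3 (ENSMUSG00000020427.11, chr11:7206086-7213923, minus strand) are neighbours, and so are Igfbp2 (ENSMUSG00000039323.18, chr1:72824503-72852474, plus strand) and Igfbp5 (ENSMUSG00000026185.8, chr1:72857932-72874884, minus strand). Igfbp4 (ENSMUSG00000017493.12) lies at chr11:99041244-99054392 on the plus strand and Igfbp6 (ENSMUSG00000023046.6) at chr15:102144362-102149511 on the plus strand. Igfbp7 (ENSMUSG00000036256.13) lies at chr5:77349240-77408041 on the minus strand, where its exons share 85 bases with Polr2b on the opposite strand. Igfals (ENSMUSG00000046070.8) lies at chr17:24865997-24882010 on the plus strand.

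The sequence before the start site is shown for 3 genes that behaved differently in these livers, namely Igfbp1, the gene of the family that varied most between mice, Igfbp4, the one that varied least, and Igfbp7, the one with the smallest p-value for the diet. Each run is the 250 bases before the RefSeq start on GRCm38.p6, read 5′ to 3′ on the strand of the gene. They lie at chr11:7197537-7197786 (plus strand), chr11:99040994-99041243 (plus strand) and chr5:77408046-77408295 (minus strand). Capitals mark the insulin response cores CAAAACA and CAAAATA in Igfbp1, the TATA box TATAAA in Igfbp4 and the GC box GGGCGG in Igfbp7, each searched on both strands.
Igfbp1: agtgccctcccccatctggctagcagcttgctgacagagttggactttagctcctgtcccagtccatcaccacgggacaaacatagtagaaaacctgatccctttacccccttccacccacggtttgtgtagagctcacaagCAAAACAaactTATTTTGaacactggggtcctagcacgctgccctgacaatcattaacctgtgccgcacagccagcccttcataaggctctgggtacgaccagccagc
Igfbp4: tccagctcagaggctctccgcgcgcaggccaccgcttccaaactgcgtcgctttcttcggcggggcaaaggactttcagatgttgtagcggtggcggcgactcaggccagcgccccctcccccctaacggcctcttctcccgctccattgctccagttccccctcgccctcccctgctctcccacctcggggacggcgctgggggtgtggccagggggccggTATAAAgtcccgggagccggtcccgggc
Igfbp7: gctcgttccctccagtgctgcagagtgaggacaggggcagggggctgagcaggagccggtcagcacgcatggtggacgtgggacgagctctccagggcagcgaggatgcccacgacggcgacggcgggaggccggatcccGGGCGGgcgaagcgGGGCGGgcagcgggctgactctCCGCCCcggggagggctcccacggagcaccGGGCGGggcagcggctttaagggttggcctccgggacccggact
The Igfbp1 window held both insulin response cores, CAAAACA starting 108 bases and CAAAATA, on the opposite strand, starting 97 bases before the start. Of 32851 windows of this length in the RefSeq table, 5.56% held CAAAACA and 3.95% held CAAAATA, and 0 of the other members' windows held either. TATAAA was found in 12.4% of all windows and, among the members, in those of Igfbp4 and Igfbp6. GGGCGG was found in 32.7% of all windows and, among the members, in those of Igfbp7, of 1 of 2 listed starts of Igfbp2 (3 matches) and of 2 of 3 listed starts of Igfals (1 and 2 matches). The Stat5 palindrome TTCNNNGAA was found in 7.02% of all windows and, among the members, in those of 2 of the 3 listed starts of Igfals. The Igfbp7 window held 26 CpG dinucleotides and 4 GC boxes, and the Igfbp1 window held 5 CpG, where the median window held 6. These matches describe letters, not binding.

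Each library held between 25897868 and 36403413 fragments, of which 14275793 to 20815066 were counted on the reverse strand of genes. Of the members, Igfbp6 had 2 to 45 counts per library, and the other 7 had at least 155 counts in every library. In the library of VDS6, 11.1% of fragments were assigned to no exon on the counted strand, the highest share of the 12. Levels are given in CPM, the count of a gene scaled by the total of its library after TMM adjustment. The sum of 6 hepatocyte markers (Alb and 5 others) was 82051 to 98484 CPM in VDD-F1 and 70062 to 87073 in VDS-F1, with 0 genes higher and 1 lower at an unadjusted p-value under 0.05. The study's supplement records a liver weight for VDD4, VDD5, VDD6, VDS3, VDS4, VDS5 and VDS6 (7 mice) but not for VDD1 to VDD3, VDS1 and VDS2 (5 mice). Among the mice with a recorded weight the hepatocyte sum was 91623 to 97379 CPM in VDD-F1 and 70062 to 78058 in VDS-F1, without overlap, with 2 genes higher and 1 lower at an adjusted p-value under 0.05 by edgeR, and its part in the differences of Igfbp7 and Igfals in these mice was not tested. What else sets these mice apart is not given in the sources used here, and for the members the comparison is therefore also given within each set.

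Per kilobase of exon, Igfbp4 had the highest mean level of the family, although in VDS2 Igfbp1 stood above it at 359 CPM per kilobase. The mean of Igfbp4 was 329.5 CPM per kilobase ± 24.5 (SD, n = 12), ahead of Igfbp2 at 153 ± 36.5, and Igfbp4 was higher than Igfbp2 in 12 of 12 mice. Igfbp1 followed at 101 ± 95.9 and Igfbp7 at 62.6 ± 24.6. Igfbp2 was above Igfbp1 in 10 of 12 mice, whereas Igfbp1 was above Igfbp7 in 6 of 12, so that this last pair did not differ beyond its spread. Igfals had 33.3 ± 7.90 and stood below Igfbp7 in 12 of 12 mice. The low end of the order was Igfbp3 at 6.24 ± 1.34, Igfbp5 at 3.81 ± 1.41 and Igfbp6 at 1.24 ± 0.678 CPM per kilobase. Igfbp3 was above Igfbp5 in 11 of 12 mice, and Igfbp5 was above Igfbp6 in 12 of 12. The length is that of all annotated exons merged, so a gene with long exons that liver seldom uses reads low on this scale. Summed over the 8 genes, the level was 691 CPM per kilobase ± 70.8 in VDD-F1 and 690.3 ± 127 in VDS-F1 (SD, n = 6 each). Igfbp4 contributed between 35.8% and 59.8% of this sum in single mice, and Igfbp1 between 2.65% and 40.7%.

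**Figure D1:**
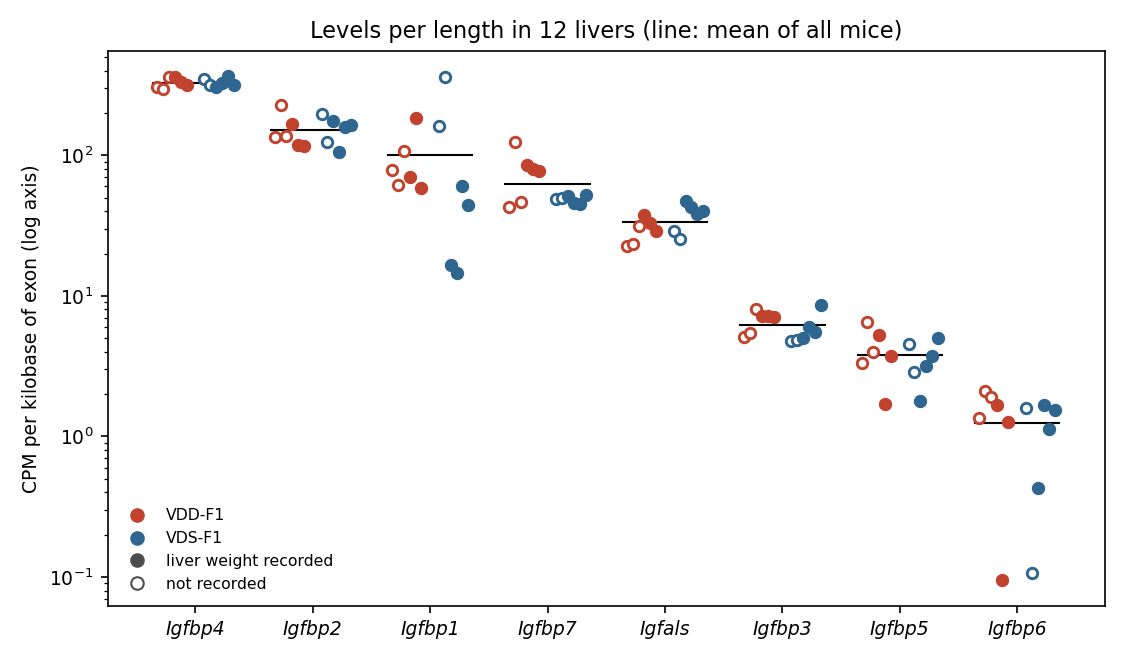
Level of each of the 8 genes in CPM per kilobase of exon on a log axis, 1 point per mouse, ordered by the mean over the 12 mice (line). Points of Igfbp4 lie together near 329.5 CPM per kilobase, while those of Igfbp1 spread across the points of its neighbours.

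The first question was whether the diet of the dam was followed by a different level of these genes in the adult offspring. The groups were compared by the quasi-likelihood test of edgeR, adjusted over the 12453 genes tested by the Benjamini-Hochberg method. To be called, a gene needed an adjusted p-value under 0.05 together with a change of more than 1 on the log2 scale in either direction. None of the 8 members was called (0 of 8, where 0.0402% of all genes were). At an unadjusted p-value under 0.05 there was 1 member, Igfbp7, of 8, where 15.8% of all genes passed. In 0 of 8 members did the groups not overlap, where 1.18% of all genes had groups that did not. The log2-fold change was positive in 4 members and negative in the other 4, with a median of 0.10 against 0.0041 over all genes.

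**Figure D2:**
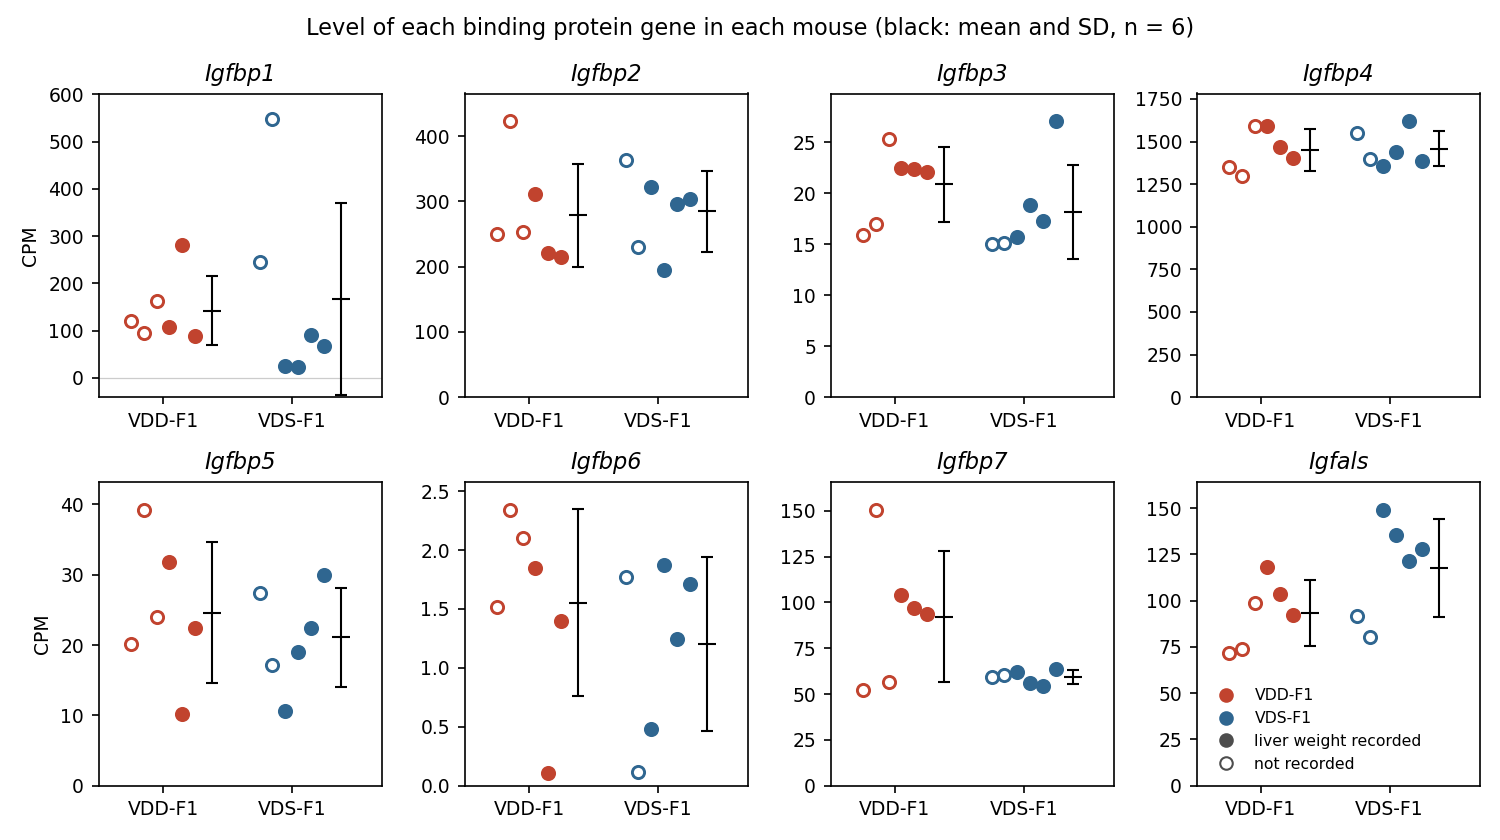
CPM of each of the 8 genes in each mouse by group, with filled points for mice with a recorded liver weight, open points for mice without one, and the mean with SD (n = 6) in black. Igfbp7 is above the VDS-F1 range in 4 of 6 VDD-F1 mice, Igfbp1 is highest in VDS2, and Igfals is highest in the VDS-F1 mice with a recorded weight.

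Igfbp7 encodes a secreted protein of the vessel wall and stroma. Its level was 52.3, 151, 56.6, 104, 96.8 and 93.4 CPM in VDD1 to VDD6. In VDS1 to VDS6 it was 59.4, 60.4, 62.1, 55.7, 54.2 and 63.6 CPM. The VDS-F1 mice lay within a narrow range, 4 VDD-F1 mice lay above all of them, and VDD1 and VDD3 did not. The mean was 92.2 ± 35.9 CPM in the VDD-F1 group against 59.2 ± 3.62 in the VDS-F1 group (SD, n = 6 each). The log2-fold change was 0.64 with a standard error of 0.20 (95% interval 0.20 to 1.08), and the adjusted p-value of edgeR's quasi-likelihood test was 0.154 (unadjusted p = 0.00731). The adjusted p-value was 0.0556 by DESeq2 and 0.0436 by limma-voom, with log2-fold changes of 0.64 and 0.59, short of the fold threshold.

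Within the mice with a recorded liver weight, Igfbp7 was 93.4 to 104 CPM in 3 VDD-F1 and 54.2 to 63.6 in 4 VDS-F1 mice, without overlap. There the log2-fold change was 0.74 (95% interval 0.54 to 0.93), with an adjusted p-value of 0.000409 by edgeR's quasi-likelihood test. Igfbp7 was the 1 member of 8 with an adjusted p-value under 0.05 in these mice, where 11% of genes had one. Groups did not overlap for 2 members, Igfbp7 and Igfals, where 23.5% of genes had such groups in these mice. In the mice without a recorded weight, the log2-fold change was 0.54 (95% interval -0.57 to 1.65). Without VDD2, the mouse with the highest level, the log2-fold change over the other 11 mice was 0.45 with an adjusted p-value of 0.282, and without VDD1, the lowest, it was 0.76 with an adjusted p-value of 0.0352, both by edgeR.

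The marker sums of portal fibroblasts, of cholangiocytes and of lymphocytes were each highest in the 4 mice with the highest Igfbp7. The summed level of 7 portal fibroblast markers (Thy1, Fbln2, Eln, Entpd2, Gli1, Mfap4 and Cd34) was 8.63, 59.7, 10.9, 35.6, 31.5 and 33.4 CPM in VDD1 to VDD6. In VDS-F1 mice it was 7.48 to 14.4 CPM. The 4 mice with the highest sum were the 4 with the highest Igfbp7, and VDD1 and VDD3 were within the VDS-F1 range of the sum, with Igfbp7 within that group's range in VDD3 and just below it in VDD1. Of the 6 markers past the filter, 4 were higher in VDD-F1 at an unadjusted p-value under 0.05, and 0 of the 7 were at 0 in every library. Of all genes tested, 15.8% had such a p-value in either direction. The sum of 8 endothelial markers was 262 to 330.5 CPM in VDD-F1 and 256 to 376 in VDS-F1, with 1 gene higher and 3 lower. The sum of 10 stellate cell markers was 419 to 658 CPM in VDD-F1 and 478 to 578 in VDS-F1, with 3 genes higher and 2 lower. The sum of 6 cholangiocyte markers was 23.9 to 117 CPM in VDD-F1 and 28.1 to 51.5 in VDS-F1, with 4 genes higher and 0 lower, and the 4 highest mice were again VDD2 (117), VDD4 (72.0), VDD5 (65.9) and VDD6 (58.9). The part of these cells in the difference of Igfbp7 was not tested, and in bulk liver a larger number of cells and more RNA per cell cannot be told apart.

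**Figure D3:**
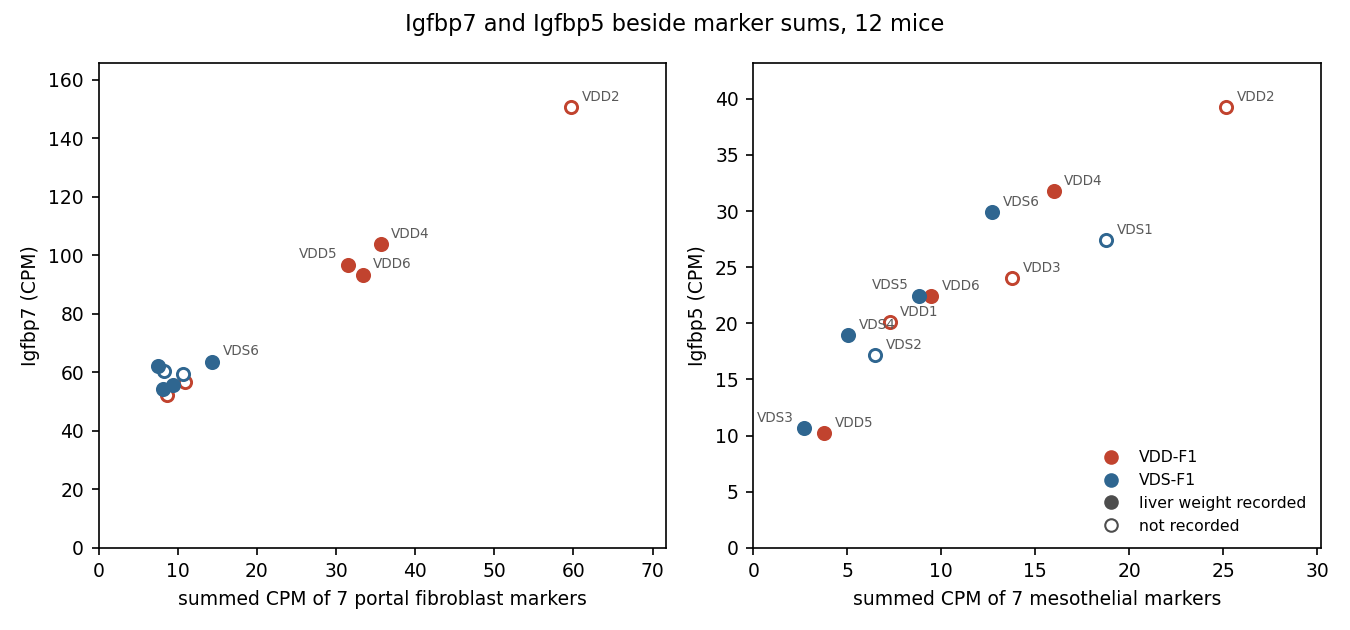
Left, Igfbp7 in CPM against the summed CPM of 7 portal fibroblast markers; right, Igfbp5 in CPM against the summed CPM of 7 mesothelial markers, 1 point per mouse. On the left, VDD2, VDD4, VDD5 and VDD6 stand apart from the other 8 mice on both axes, and on the right both groups lie along the same band.

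Igfbp1, which insulin represses, varied most between mice. Its level was 119.8, 94.0, 163, 108, 281 and 88.8 CPM in VDD1 to VDD6. VDS1 to VDS6 had 244, 547, 25.3, 22.1, 91.7 and 67.6 CPM. The VDS-F1 group held both the highest and the lowest mice, 24.8-fold apart, and enclosed all VDD-F1 mice. The coefficient of variation over the 12 mice was 94.7%, larger than that of 98.3% of the genes tested. Between the groups the log2-fold change was -0.22 with a standard error of 0.65 (95% interval -1.62 to 1.17), and the adjusted p-value of edgeR's quasi-likelihood test was 0.908. An increase or a decrease of more than 1 on the log2 scale is within this interval.

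The difference in Igfbp1 ran in opposite directions in the sets of mice. With a recorded weight, it was 88.8 to 281 CPM in VDD-F1 and 22.1 to 91.7 in VDS-F1, with a log2-fold change of 1.63 (95% interval 0.56 to 2.70) and an adjusted p-value of 0.0542 by edgeR. Without one, it was 94.0 to 163 CPM in 3 VDD-F1 mice and 244 to 547 in only 2 VDS-F1 mice. There the log2-fold change was -1.65 (95% interval -2.53 to -0.77, unadjusted p = 0.00308, adjusted p = 0.9998 by edgeR). The difference between the sets was tested by the interaction of diet and set in edgeR's quasi-likelihood model, which gave -3.28 on the log2 scale with a standard error of 0.79 (unadjusted p = 0.00112, adjusted p = 0.178). Igfbp1 was the 1 member of 8 with an unadjusted p-value under 0.05 for this term, where 9.01% of all genes had one. The adjusted p-value did not pass the threshold for any member and passed it for 11 genes in all. Without VDS2, the mouse with the highest level, the log2-fold change over the other 11 mice was 0.66, the reverse of the sign over all mice.

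**Figure D4:**
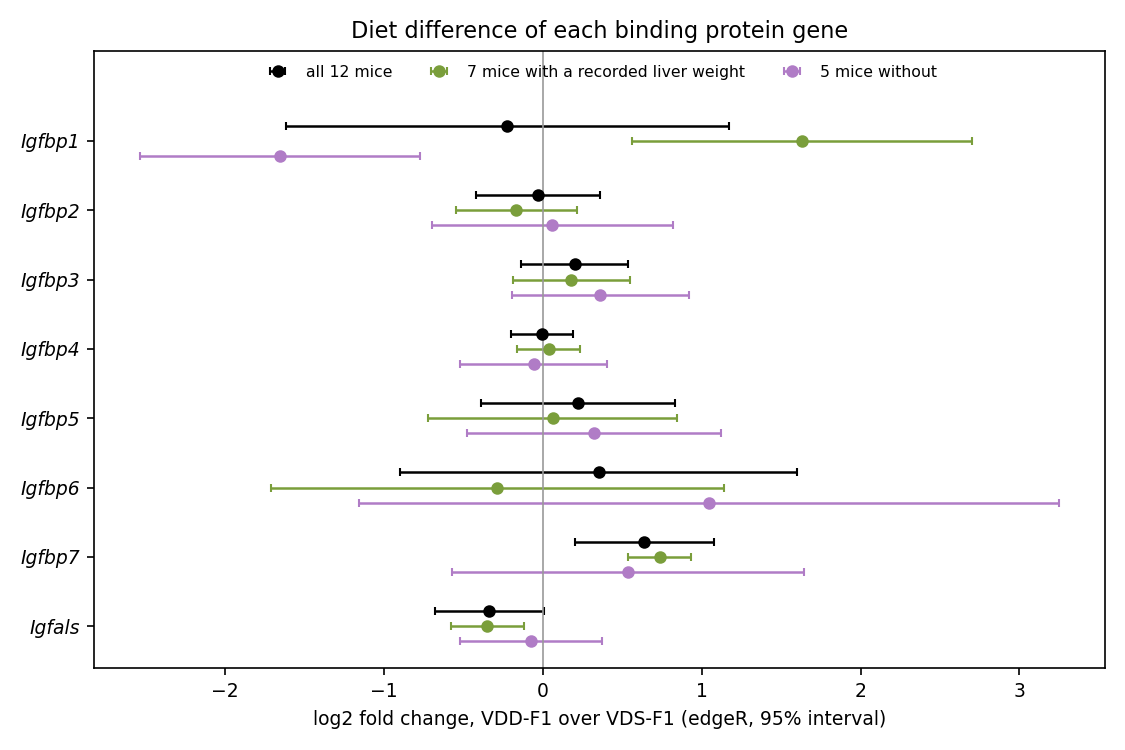
Log2-fold change of VDD-F1 over VDS-F1 with its 95% interval from edgeR for each gene, in all 12 mice, in the 7 with a recorded liver weight and in the 5 without. Intervals of Igfbp1 lie on opposite sides of 0 in the sets, that of Igfbp7 lies above 0 over all mice and in the 7, and those of Igfbp2 and Igfbp4 include 0 in each.

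Igfals encodes the acid-labile subunit that completes the ternary complex. Its level was 71.9, 73.9, 98.7, 118, 104 and 92.0 CPM in VDD1 to VDD6. In VDS1 to VDS6 it was 91.7, 80.2, 149, 135, 121 and 128 CPM. The 4 VDS-F1 mice with a recorded weight were above all VDD-F1 mice, and VDS1 and VDS2 were within the VDD-F1 range. The mean was 93.1 ± 17.9 CPM in the VDD-F1 group against 118 ± 26.4 in the VDS-F1 group (SD, n = 6 each). For Igfals the log2-fold change was -0.34 with a standard error of 0.16 (95% interval -0.68 to 0.0064), and the adjusted p-value of edgeR's quasi-likelihood test was 0.323 (unadjusted p = 0.0539). The unadjusted p-value was 0.0448 by DESeq2 (adjusted p = 0.282) and 0.0368 by limma-voom (adjusted p = 0.188). By edgeR the log2-fold change was -0.35 (95% interval -0.58 to -0.12, adjusted p = 0.0546) with a recorded weight and -0.08 (95% interval -0.52 to 0.37) without one.

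Igfals also differed between the sets of mice. In a fit with diet and set, it was lower without a recorded weight by a log2-fold change of -0.49 with a standard error of 0.11, at an adjusted p-value of 0.0324 by edgeR's quasi-likelihood test. It was the 1 member of 8 with an adjusted p-value under 0.05 for the set, where 2.46% of all genes had one. With the set in the fit, the log2-fold change for the diet was -0.24. VDD-F1 mice had a recorded weight in 3 of 6 cases and VDS-F1 mice in 4 of 6.

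Igfbp3, the main carrier of IGF1 in the blood, is made in liver by non-parenchymal cells. Its level was 15.9, 17.0, 25.4, 22.5, 22.4 and 22.1 CPM in VDD1 to VDD6. VDS1 to VDS6 had 14.99, 15.1, 15.7, 18.9, 17.3 and 27.1 CPM. VDD3 to VDD6 were above 5 of the 6 VDS-F1 mice and below VDS6, the library with the highest share of fragments assigned to no exon. Over all mice the log2-fold change of Igfbp3 was 0.20 with a standard error of 0.16 (95% interval -0.14 to 0.54, adjusted p = 0.573 by edgeR). It was 0.18 with and 0.36 without a recorded weight. Without VDS6 it was 0.35, with an adjusted p-value of 0.249.

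Igfbp2 and Igfbp4 are the members with the highest mean levels per length, and neither differed by diet beyond the spread between mice. Igfbp2, a hepatocyte product, was 215 to 423 CPM in VDD-F1 with a median of 251. In VDS-F1 it was 195 to 363 CPM with a median of 299.8. The groups overlapped almost entirely, and VDD2 was the highest of the 12. Its log2-fold change was -0.03 (95% interval -0.42 to 0.36, adjusted p = 0.959 by edgeR), with -0.17 in the mice with and 0.06 in those without a recorded weight. Igfbp4, an inhibitor of IGF action, was 1353, 1299.8, 1594, 1590.0, 1467 and 1405 CPM in VDD1 to VDD6. In VDS1 to VDS6 it was 1553, 1395, 1359, 1440.2, 1619.9 and 1387 CPM. Its highest mouse exceeded its lowest 1.25-fold, and the coefficient of variation was 7.44%, with only 2.66% of the genes tested below it. For Igfbp4 the log2-fold change was -0.0071 (95% interval -0.20 to 0.19, adjusted p = 0.984 by edgeR), so that a difference beyond 0.20 on the log2 scale in either direction is outside the interval. It was 0.04 with and -0.06 without a recorded weight.

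Igfbp5 and Igfbp6 were the least abundant per length. Igfbp5, which attaches to extracellular matrix, was 20.1, 39.3, 24.0, 31.8, 10.2 and 22.4 CPM in VDD1 to VDD6. VDS1 to VDS6 had 27.4, 17.1, 10.6, 19.0, 22.5 and 29.9 CPM. The groups overlapped, with the lowest values in VDD5 and VDS3, 1 in each group. The log2-fold change was 0.22 (95% interval -0.39 to 0.83, adjusted p = 0.751 by edgeR), with 0.06 in the mice with and 0.32 in those without a recorded weight. With 1 mouse left out it ranged from 0.037 without VDD2 to 0.39 without VDD5, and was 0.087 without VDS3, 0.14 without VDD4 and 0.35 without VDS6. The summed level of 7 mesothelial markers, genes of the sheet of cells that covers the liver, was 2.68 CPM in VDS3 and 3.78 in VDD5, the lowest of the 12 mice. It was 25.2 CPM in VDD2, the highest in both measures. The part of mesothelial cells in the level of Igfbp5 was not tested. Igfbp6, which prefers IGF2, was counted 24, 45, 28, 27, 2 and 30 times in VDD1 to VDD6 and 36, 2, 7, 36, 18 and 24 times in VDS1 to VDS6. At 2 counts in VDD5 and VDS2, these libraries set no firm level. Its log2-fold change was 0.35 (95% interval -0.90 to 1.60, adjusted p = 0.815 by edgeR), with -0.29 in the mice with and 1.05 in those without a recorded weight. With 1 mouse left out it ranged from 0.11 without VDS2 to 0.61 without VDD5, the mice with 2 counts, and was 0.18 without VDD2, 0.19 without VDS3 and 0.53 without VDS4.

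Among the ligands and receptors, 5 of 6 genes passed the filter and 0 had an unadjusted p-value under 0.05. Igf1 was 537, 562, 549.7, 775, 915 and 688 CPM in VDD1 to VDD6. In VDS1 to VDS6 it was 598, 561, 629, 673, 673 and 604 CPM. The 3 VDD-F1 mice with a recorded weight were above every VDS-F1 mouse. VDD1 and VDD3 were below every VDS-F1 mouse, and VDD2 was below 5 of the 6. The log2-fold change was 0.11 (95% interval -0.18 to 0.39, adjusted p = 0.740 by edgeR), and it was 0.30 with a recorded weight (adjusted p = 0.0856) and -0.08 without one. Without VDD5 it was -0.0038, without VDD4 0.062 and without VDD1 0.16. Igf2, the fetal ligand, was at most 1.65 CPM in 11 mice and 12.8 in VDS6, with a log2-fold change of -1.51 (adjusted p = 0.440 by edgeR). Without VDS6 it was 0.68, the reverse sign. The IGF1 receptor gene Igf1r was at 16.1 CPM in VDD2 and 5.72 to 9.34 CPM in the other 11 mice, with a log2-fold change of 0.22 (adjusted p = 0.679 by edgeR), or -0.074 without VDD2. The insulin receptor gene Insr had a log2-fold change of -0.14 (adjusted p = 0.468 by edgeR).

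Of the growth hormone receptor and Stat5 list, 7 of 8 genes passed the filter, with 1 higher and 0 lower at an unadjusted p-value under 0.05. Ghr was 324 to 571 CPM in VDD-F1 and 487 to 597 in VDS-F1, with a log2-fold change of -0.21 (95% interval -0.46 to 0.04, adjusted p = 0.406 by edgeR). Stat5b was 55.3 to 80.3 CPM in VDD-F1 and 66.3 to 95.03 in VDS-F1, with a log2-fold change of -0.12 (adjusted p = 0.643 by edgeR). Both genes were lowest in VDD2. The gene with the smallest p-value was Socs3, an inhibitor of cytokine signalling, at 3.52 to 17.5 CPM in VDD-F1 and 3.78 to 4.94 in VDS-F1. Its log2-fold change was 0.82 (95% interval 0.14 to 1.504, unadjusted p = 0.0211, adjusted p = 0.233 by edgeR), with 4 of 6 VDD-F1 mice above the VDS-F1 range. It was 0.10 with a recorded weight (adjusted p = 0.826 by edgeR), 1.23 without one (95% interval 0.26 to 2.21, adjusted p = 0.9998 by edgeR) and 0.38 by limma-voom (adjusted p = 0.448). VDD1 had the highest level of Socs3, and without this mouse the log2-fold change was 0.44 (adjusted p = 0.321 by edgeR). For Ghr it was -0.15 with and -0.30 without a recorded weight, and for Stat5b -0.02 and -0.26. Without VDD2 the value was -0.12 for Ghr and -0.046 for Stat5b, which was also -0.056 without VDS6.

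Proteases of the binding proteins and their inhibitors had a median log2-fold change of 1.24, the largest among the 6 lists of the pathway, over only 4 of 12 genes that passed the filter. The most abundant of the 4 was Plg, the plasminogen gene that hepatocytes express, named here after its values were seen. It was 2040.1 to 2645 CPM in VDD-F1 and 2408 to 3196 in VDS-F1, with 4 VDS-F1 mice above all VDD-F1 mice and a log2-fold change of -0.19 (95% interval -0.41 to 0.02, adjusted p = 0.374 by edgeR). The other 3 had an unadjusted p-value under 0.05, all higher in VDD-F1, and 0 were called by edgeR. DESeq2 called 1 of them, Htra1 (log2-fold change 1.15, adjusted p = 0.0477), and limma-voom called 1, Mmp2 (1.74, adjusted p = 0.0465). The gelatinase gene Mmp2 was 2.46, 28.3, 3.61, 13.4, 9.56 and 12.6 CPM in VDD1 to VDD6 and 2.13 to 7.64 CPM in VDS-F1 mice. Its log2-fold change was 1.69 (95% interval 0.60 to 2.78, unadjusted p = 0.00500, adjusted p = 0.133 by edgeR). The serine protease gene Htra1 was 1.51, 9.22, 3.84, 7.82, 4.73 and 6.33 CPM in VDD1 to VDD6 and 1.30 to 3.70 CPM in VDS-F1 mice. Its log2-fold change was 1.15 (95% interval 0.36 to 1.93, adjusted p = 0.156 by edgeR). For the related gene Htra3 it was 1.34 (95% interval 0.32 to 2.35, adjusted p = 0.197 by edgeR). As with Igfbp7, the highest mice were VDD2, VDD4, VDD5 and VDD6 for Mmp2 and Htra1, which are also expressed by fibroblasts. In the mice with a recorded weight all 3 had adjusted p-values under 0.05 by edgeR, with log2-fold changes of 2.06, 1.38 and 1.98. In the mice without a recorded weight the log2-fold changes were 1.17, 0.83 and 0.56, with 95% intervals that included 0. With 1 mouse left out, the adjusted p-value by edgeR ran from 0.0371 without VDD1 to 0.284 without VDD2 for Mmp2 (log2-fold change 1.90 and 1.204), and from 0.0283 to 0.303 without the same mice for Htra1 (1.34 and 0.94). VDD1 was the 1 mouse without which either was under 0.05.

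Of 8 cysteine-rich proteins related to the family, 6 passed the filter, with 1 higher and 0 lower at an unadjusted p-value under 0.05. That gene was Esm1, an endothelial proteoglycan gene, at 0.756, 4.69, 2.41, 4.11, 5.72 and 4.94 CPM in VDD1 to VDD6. VDS1 to VDS6 had 1.18, 0.589, 0.206, 0.883, 0.902 and 0.857 CPM. All VDD-F1 mice but VDD1 were above the VDS-F1 range. For Esm1 the log2-fold change was 2.27 (95% interval 1.33 to 3.22, unadjusted p = 0.000143, adjusted p = 0.0640 by edgeR). Esm1 was called by DESeq2 (2.28, adjusted p = 0.000142) and by limma-voom (2.56, adjusted p = 0.0237). With a recorded weight it was 2.77 (adjusted p = 0.000567 by edgeR) and without one 1.56 (95% interval -0.40 to 3.51). The adjusted p-value by edgeR was 0.0255 with no filter, 0.00487 without VDD1 and 0.0364 without VDD3, and without each of the other 10 mice in turn it was over 0.05, up to 0.162 without VDS3 (log2-fold change 2.09). Ccn4 had a log2-fold change of 0.42 (adjusted p = 0.515 by edgeR) and Kazald1 one of 0.50 (adjusted p = 0.539), or 0.77 without VDS1. With a recorded weight 2 genes of this list were higher at an adjusted p-value under 0.05 by edgeR, Esm1 and Ccn2, a matrix-associated growth factor gene named here after its values were seen. Ccn2 had a log2-fold change of 1.52 in these mice (95% interval 0.84 to 2.19, adjusted p = 0.00862 by edgeR). It was -1.31 in the other mice (95% interval -2.46 to -0.17, adjusted p = 0.9998 by edgeR) and 0.30 over all mice (adjusted p = 0.803 by edgeR). For Ccn2 the interaction of diet and set was -2.83 on the log2 scale (unadjusted p = 0.000581, adjusted p = 0.145 by edgeR).

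In the list of insulin receptor substrates and Akt, all 13 genes passed the filter. At an unadjusted p-value under 0.05 there were 0 higher and 2 lower, near the 15.8% share of all genes tested. The first was Irs1, which carries the signal from the insulin and IGF1 receptors, at 44.9 to 81.2 CPM in VDD-F1 and 68.2 to 102 in VDS-F1, with a log2-fold change of -0.34 (95% interval -0.65 to -0.03, adjusted p = 0.271 by edgeR). The second was Pik3r1, a regulatory subunit of phosphoinositide 3-kinase, at 97.3 to 124 CPM in VDD-F1 and 112 to 151 in VDS-F1, with a log2-fold change of -0.23 (95% interval -0.43 to -0.04, adjusted p = 0.241 by edgeR). The adaptor gene Grb10 had a log2-fold change of 0.39 (adjusted p = 0.541), or 0.22 without VDD5. In the Foxo and fasting list, whose genes like Igfbp1 respond to insulin, all 11 genes passed the filter, with 1 higher and 0 lower. The higher one was Sesn3 at 65.3 to 76.1 CPM in VDD-F1 and 48.7 to 76.1 in VDS-F1, with a log2-fold change of 0.28 (95% interval 0.07 to 0.50, adjusted p = 0.199 by edgeR). Pdk4 had a log2-fold change of 0.56 (adjusted p = 0.459) and Foxo3 one of -0.22 (adjusted p = 0.488), both by edgeR. In the mice with a recorded weight, 1 gene of this list was higher and 1 lower at an adjusted p-value under 0.05 by edgeR, Sesn3 (0.42, adjusted p = 0.0226) and Foxo3 (-0.43, adjusted p = 0.00699). In the other mice the log2-fold change was 0.05 for Sesn3 and 0.15 for Foxo3. By limma-voom Sesn3 had 0.38 over all mice (adjusted p = 0.0347). Irs1 had -0.12 with and -0.65 without a recorded weight, and Pik3r1 had -0.30 and -0.17.

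**Figure D5:**
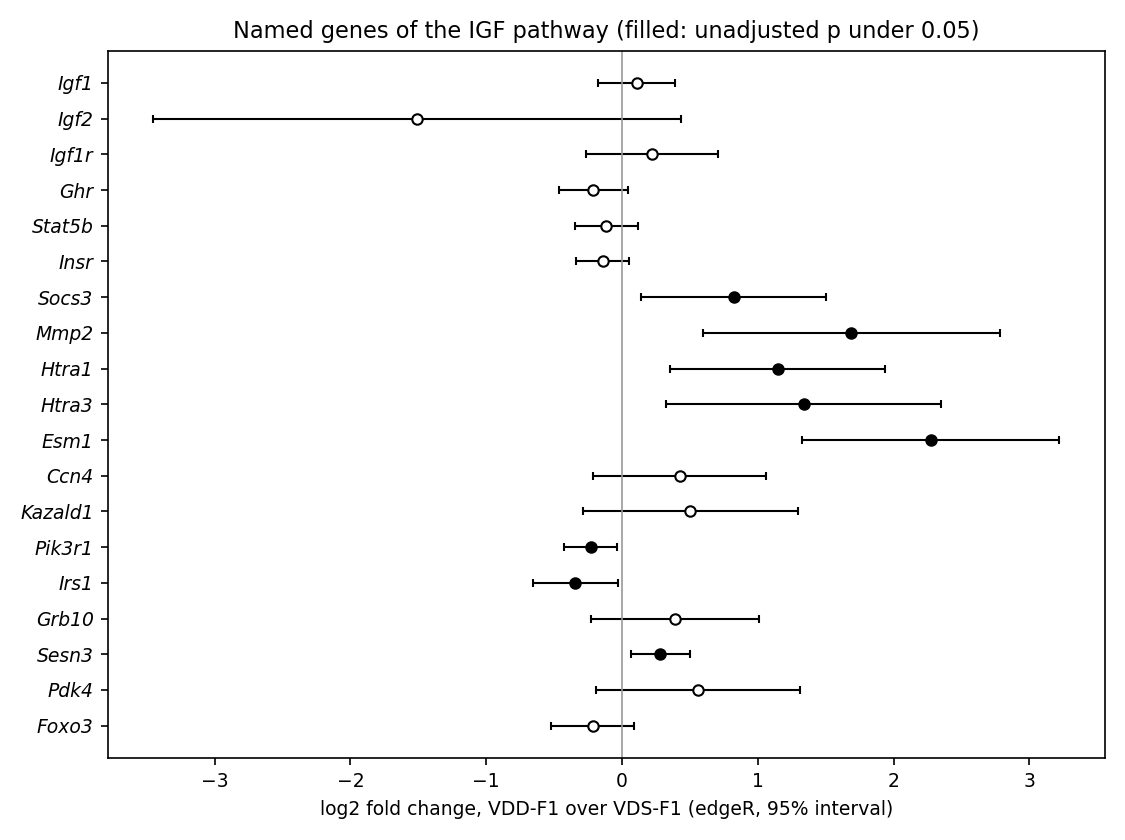
Log2-fold change of VDD-F1 over VDS-F1 with its 95% interval from edgeR for the 19 named genes of the pathway lists, filled where the unadjusted p-value is under 0.05. Mmp2, Htra1, Htra3, Esm1, Socs3 and Sesn3 lie above 0 and Irs1 and Pik3r1 below, and none was called by edgeR, while DESeq2 called Esm1 and Htra1 and limma-voom called Esm1 and Mmp2.

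Relations across the 12 mice were computed for 6 pairs on log2 CPM, with permutation tests (100000 resamples, two-sided) and Benjamini-Hochberg adjustment over the pairs. None had an adjusted p-value under 0.05. Igfbp1 and Igfbp3 lie 3539 bases apart on chromosome 11 and are read towards each other, and their Pearson r was -0.09 (Spearman rho -0.22, permutation p = 0.789 and 0.486, adjusted p = 0.922 and 0.583) and 0.50 within the 7 mice with a recorded weight. Igfbp2 and Igfbp5 lie 5457 bases apart on chromosome 1, also read towards each other, and their r was 0.52 (rho 0.62, permutation p = 0.0873 and 0.0367, adjusted p = 0.492 and 0.188). Without VDD2 and VDS4, the mice farthest from the median of Igfbp2, it was 0.36, and within the 7 mice it was 0.23. For Igfals and Igf1, r was 0.43 (rho 0.56, permutation p = 0.166 and 0.0626, adjusted p = 0.492 and 0.188) and 0.41 without VDS3 and VDD1. It was 0.72 within VDD-F1, 0.73 within VDS-F1 and -0.54 within the 7 mice. The 7 mice pool both diet groups, which did not overlap there in Igfals or in Igf1. The last value therefore mixes the group difference with the relation, and the relation with diet removed was not tested. For Igfbp3 and Igf1, r was 0.35 (rho 0.36, permutation p = 0.268 and 0.249, adjusted p = 0.492 and 0.373) and was 0.84 without VDS6 and VDD3 and 0.18 within the 7 mice. For Igfbp3 and Igfals, r was 0.31 (rho 0.37, permutation p = 0.328 and 0.233, adjusted p = 0.492 and 0.373), 0.25 without VDS6 and VDD3, and -0.47 within the 7 mice. For Igfbp1 and Igfbp2, r was -0.03 (rho 0.0070, permutation p = 0.922 and 0.991, adjusted p = 0.922 and 0.991), -0.24 without VDS2 and VDS4 and -0.05 within the 7 mice. For Igfbp1 and Igfbp3 it was 0.13 without the same mice. The set of 5 was too small for a value of its own.

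For each member, the 3 genes with the most similar levels over the 12 mice were found by Pearson r of log2 CPM, given as a description since they were the highest of all genes tested. Igfbp7 was most like App (r = 0.98), Lbh (0.98) and Ace (0.98), the last the gene of angiotensin-converting enzyme. Igfbp1 was most like Serpina11 (0.90), Cebpd (0.88), a transcription factor gene of the acute phase, and Dixdc1 (0.87). Igfals was most like the cytochrome P450 genes Cyp4v3 (0.95) and Cyp2a12 (0.93) and Psme3 (0.93). Igfbp4 was most like Lcat (0.90), the enzyme that esterifies plasma cholesterol, Poc5 (0.84) and Arhgap29 (0.82). Igfbp5 was most like Gpc3 (0.94), Upk3b (0.93), which is also a marker in the mesothelial list, and Tmem110 (0.89). Igfbp2 was most like Tbc1d2b (0.86), Acvr1b (0.86) and Zyx (0.85). Igfbp3 was most like Aplp2 (0.87), Tmem216 (0.85) and Gm15952 (0.83), and Igfbp6 like Pdcd2l (0.80), Lipt2 (0.80) and Adprhl2 (0.80).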

How the data were processed

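Liver RNA of 12 male mice was sequenced with 1 library per mouse after removal of ribosomal RNA, with a kit that keeps the strand. Per the study's methods, the authors removed low-quality reads, trimmed adapters, aligned with STAR to mm10 (GRCm38) and counted on GENCODE M15. The authors deposited raw counts of fragments per gene, without normalization, once without regard to strand and once per strand. The column for the reverse strand was taken, which held 92.7% to 95.8% of stranded counts. Gene names and positions came from GENCODE M21 on GRCm38, and promoter sequences from RefSeq on GRCm38.p6, where all 8 members were matched.

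Groups followed the labels. A mean count of 12 or more was required (12453 genes), and these were tested with edgeR 4.0.16 in R 4.3.3 (TMM, quasi-likelihood in the legacy form, Benjamini-Hochberg adjustment), where the study used DESeq2. CPM are counts scaled by the TMM library size, and log2 CPM used a prior count of 2. Alternatives were DESeq2 1.42.0, limma 3.58.1 (voom, sample quality weights), the robust and the newer form of edgeR, size factors of DESeq2, unstranded counts, no filter or a total count of 12, a covariate for the set of mice, fits within a set, leave-one-out fits and a replicate block. The members, the gene lists and the marker lists were chosen with earlier results of these data known. The named genes are the members, Igf1, Igf2, Igf1r, Ghr and Stat5b, up to 3 genes with the smallest p-values in each other list, and the 3 genes most like each member. The fit was tested on simulated data with 200 changed genes of 12453. Python 3.11.15, pandas 2.3.3, SciPy 1.17.1 and matplotlib 3.10.9 were used. The test of the set term, the counts without a limit on the fold change, and the choice of the marker sums set beside Igfbp7 and Igfbp5 were added after the data had been seen.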

Additional observations from a re-analysis of the deposited data

Results flagged for a closer look

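A sample stood far from the others of its group, by Dixon's test at the 95% level, in 7 of 54 groups of 6 mice over 27 genes, where chance flags about 1 in 20. Igfbp3 was 27.1 CPM in VDS6, and the next VDS-F1 mouse had 18.9. Igf2 was 12.8 CPM in VDS6 and at most 0.892 in the other VDS-F1 mice. Igf1r was 16.1 CPM in VDD2 with 7.47 in the next VDD-F1 mouse, and Kazald1 was 1.56 CPM in VDD2 with 0.903 in the next. Stat5b was lowest in VDD2, at 55.3 CPM, with 73.3 in the next lowest VDD-F1 mouse. Htra3 was 3.80 CPM in VDS1 with 1.29 in the next VDS-F1 mouse. Foxo3 was lowest in VDS1, at 70.9 CPM, with 109 in the next lowest. The same mice recurred, with VDS6 in 2 of the 7, VDD2 in 3 and VDS1 in 2.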

How the results depend on the processing

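The count of called members was 0 in every alternative run, and 170 of 192 values of the members kept their direction and their side of the threshold. The number of genes called over the whole table was far less stable, at 5 as reported, 253 by DESeq2, 252 by voom, 2 by the robust fit, 17 by the newer form, 70 with no filter, 21 with the set as a covariate, 536 in the mice with a recorded weight and 0 in those without. With 1 mouse left out it was 0 to 260, with 260 without VDD1, 94 without VDD3, 12 without VDS2, 1 without VDS6 and 0 without VDD4, VDD5, VDD6, VDS3, VDS4 or VDS5. Genes at an unadjusted p-value under 0.05 numbered 1972, and 3208 with no filter, 3168 in the recorded and 473 in the other mice. Members at that level numbered 1, and 2 by DESeq2, with no filter, with a total count of 12 and with the set as a covariate, 3 by voom and in the recorded mice, and 1 to 2 with a mouse left out.

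Replicate numbers mark different mice, and deviations of same-numbered mice had correlations of -0.08 to 0.10 over 6 pairs, so the pairing has no basis. With a replicate block 17 genes were called, 2 members had an unadjusted p-value under 0.05, and the log2-fold change was 0.65 for Igfbp1 and 0.032 for Igf2.

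The sign over all mice was reversed as follows. Igfbp1 was 1.19 by voom, 0.27 with the set as a covariate, 1.63 in the recorded mice and -0.54 to 0.66 with a mouse left out. Igfbp2 was 0.060 in the mice without a recorded weight and -0.19 to 0.049 with a mouse left out. Igfbp4 was 0.023 by voom, 0.037 in the recorded mice and -0.036 to 0.025 with a mouse left out, all near 0. Igfbp6 was -0.060 by voom and -0.29 in the recorded mice. Igf1 was -0.075 without a recorded weight and -0.0038 to 0.16 with a mouse left out. Igf2 was 0.21 by voom and -1.77 to 0.68 with a mouse left out. Igf1r was -0.0042 by voom, -0.10 in the recorded mice and -0.074 to 0.30 with a mouse left out. Pdk4 was -0.064 and Foxo3 0.15 without a recorded weight. The cause of these reversals was not tested.

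Pearson r also moved between subsets. For Igfbp1 and Igfbp3 it was 0.38 in VDD-F1, -0.36 in VDS-F1 and 0.50 in the recorded mice. For Igfbp2 and Igfbp5 it was 0.79, 0.19 and 0.23, and for Igfals and Igf1 0.72, 0.73 and -0.54, in the same order. For Igfbp3 and Igf1 it was 0.15 in VDS-F1, for Igfbp3 and Igfals 0.85 in VDD-F1 and -0.47 in the recorded mice, and for Igfbp1 and Igfbp2 -0.45 in VDD-F1. Igfbp6, with 2 to 45 counts per library, is limited by depth.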

Other observations

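Other cell types were described by their summed marker levels. Kupffer cell markers (6 genes) were 79.7 to 230.3 CPM in VDD-F1 and 121 to 240.5 in VDS-F1, with 0 higher and 2 lower at an unadjusted p-value under 0.05. Smooth muscle markers (5 genes, 3 past the filter) were 7.12 to 17.1 CPM in VDD-F1 and 5.56 to 18.04 in VDS-F1. Adipocyte markers (5 genes, 2 past the filter) were 5.57 to 12.9 CPM in VDD-F1 and 3.16 to 15.3 in VDS-F1, and Lep was the 1 gene of the 5 at 0 in every library. Lymphocyte markers (5 genes, 2 past the filter) were 0.527 to 7.97 CPM in VDD-F1 and 1.13 to 3.01 in VDS-F1. The highest were VDD2 (7.97), VDD5 (3.31), VDD6 (3.26) and VDD4 (3.22), the mice with the highest Igfbp7, with VDS2 close behind at 3.01. Mesothelial markers were 3.78 to 25.2 CPM in VDD-F1 and 2.68 to 18.8 in VDS-F1, with 1 of 6 higher. None of these lists held a called gene by edgeR's quasi-likelihood test, and whether they bear on the binding protein genes was not tested.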
